A study of Mus musculus with 47 samples.

Results

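Retinas of 20-month-old (aged) mice were compared with retinas of 6-week-old (young) mice at a single time of day, zeitgeber time 18 (ZT18), the middle of the dark phase. Zeitgeber time counts hours from lights on in a cycle of 12 h light and 12 h darkness. Both ages were C57BL/6, an inbred laboratory strain with no engineered allele or drug treatment named in the labels. Messenger RNA of whole retinas, dissected under dim red light from right eyes, was sequenced after selection of polyadenylated RNA. The comparison used 3 aged and 4 young libraries, part of a series of 47 libraries taken every 4 h at 6 times. The labels name 4 mice per age and time. The p-values measure the spread between libraries of the same age and time, taken over all 12 such groups of the series.

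The genes compared were those with at least 0.5 RPKM (reads per kilobase of exon per M, or mega, reads) in at least 3 of the 7 libraries. This rule kept 14461 of 57180 genes, of which 12710 reached 0.5 RPKM in all 7 libraries. The rule looked at level in either age and not at the age difference, but 21 genes passed through the aged libraries alone and 63 through the young libraries alone, and such genes had to differ. At the border, Nhlh1 was just inside, with a third-highest value of 0.5 RPKM, and Calcr just outside, with 0.4993 RPKM.

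The retina turns light into nerve signals through rods and cones, passes them by bipolar cells to ganglion cells, and shapes them by horizontal and amacrine cells, with Müller glia, astrocytes and microglia as support. Its photoreceptors renew their light-sensing membranes daily, and many of its transcripts follow the time of day. Aging of the mouse retina is known for glial and immune activation and for bipolar and horizontal cell processes that extend beyond their layer. The question was which transcripts differed with age in the middle of the night, and whether those differences were particular to that time.

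The libraries held 37.3, 40.1 and 35.3 M (mega) reads in aged retinas, against 36.2, 36.5, 42.3 and 40.7 M in young retinas, as implied by the deposited values. At the lowest of these depths, 0.5 RPKM of a gene with 2 kb of exon corresponds to 35.3 reads. All 17 listed rod markers and 12 of 13 cone markers passed the level filter. The Y-linked Ddx3y was at 7.70 ± 0.317 RPKM in aged and 7.80 ± 0.989 RPKM in young retinas (SD, n = 3 and n = 4), and Xist, made from the inactive X chromosome of females, reached 0.00299 RPKM in aged and 0.00308 RPKM in young retinas.

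The aged libraries differed more among themselves than the young ones. The median SD per gene on the log2 scale was 0.16 in aged and 0.11 in young retinas, and 67.4% of genes had the larger SD in aged retinas. The young ZT18 value was the lowest of the 12 groups of age and time in the series, which ran up to 0.37. The leading principal component, with 34.7% of the variance, placed aged replicate 1 at -31.8 and aged replicate 3 at 29.4, with aged replicate 2 at 0.9 and the young libraries between -7.2 and 5.5. Aged replicate 1 had low ganglion cell and amacrine markers. The 15 ganglion cell markers summed to 326, 589 and 916 RPKM in aged replicates 1, 2 and 3. They summed to 507, 504, 536 and 485 RPKM in the young libraries. The 13 amacrine markers summed to 221, 377 and 531 RPKM in the aged libraries, against 340, 334, 343 and 319 RPKM in the young. The young libraries lay close together, while the aged ones ran from below to above them. In these whole-retina libraries, fewer cells of a type and less RNA per cell cannot be told apart, and the same holds for more. Aged replicate 1 also held 204 RPKM of Gzmm, a granzyme gene, against 33.7 and 29.2 RPKM in the other aged libraries and 30.5 to 37.3 RPKM in the young. Aged replicate 3 had the lowest cone marker sum, 569 RPKM, against 933 and 832 RPKM in the other aged libraries and 806 to 840 RPKM in the young.

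At ZT18 few genes were called between aged and young retinas with these 7 libraries, and most of those were higher in aged retinas. Among called genes with an established symbol and at least 2 RPKM in 1 age, the largest rises were in Csrp3, Alas2, Prok1, Glb1l3, Rab37 and Col4a3. Calls required a Benjamini-Hochberg adjusted p under 0.05 in limma and a fold over 1.5. Of 14461 genes, 33 were called (0.228%), 30 higher (0.207%) and 3 lower (0.0207%) in aged retinas. The adjusted p alone was passed by 40 genes (0.277%), of which 35 were higher (0.242%) and 5 lower (0.0346%). An unadjusted p under 0.05 in limma was reached by 525 genes, 352 higher and 173 lower. This is under a share of 0.05 of the 14461 genes, the share expected to pass when no gene differs. Over all tested genes the median log2 difference was 0.01, with 7810 genes higher and 6651 lower. All 33 called genes had groups that did not overlap, and the same held for 5.5% of all tested genes in the higher and 3.48% in the lower direction.

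**Figure D1:**
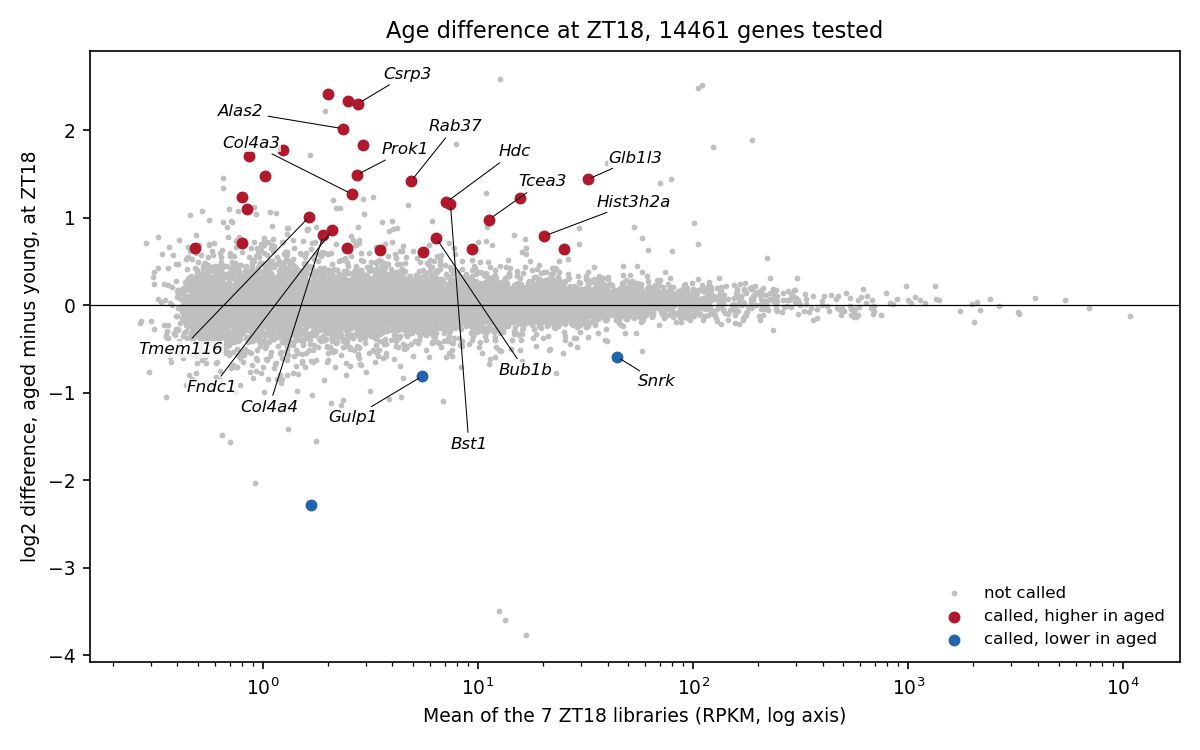
Log2 difference between aged and young retinas at ZT18 (vertical axis, from log2(RPKM + 0.5)) against the mean RPKM of the 7 libraries (horizontal log axis) for each of the 14461 genes tested. The 30 genes called higher (red) lie between 0.61 and 2.41, the 3 called lower (blue) lie at -0.59, -0.81 and -2.29, and the 3 grey points near the bottom are gamma crystallin genes that did not pass.

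The spread was estimated over all 12 groups of the series, 2 of which hold a library that stands apart, in aged retinas ZT6 replicate 3 and in young retinas ZT10 replicate 4: without these libraries 69 genes were called, 59 higher and 10 lower, and all 33 were among them. Without aged ZT18 replicate 2, 19 genes were called, of which 17 were among the 33. Left out in turn, each of the 7 libraries left 19 to 30 genes called. With each library weighted (array weights) in limma 378 genes were called, 268 higher and 110 lower, so the number of calls depends on the setting. Counts of list members with array weights, given below, use the adjusted p alone, without the fold minimum. The share of all genes passing it in that fit was not counted.

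Csrp3, Glb1l3 and Tmem116 rose in every fit that left out a library. Csrp3 encodes a LIM domain protein best known from striated muscle. Its level was 7.31, 4.79 and 4.44 RPKM in aged retinas, against 0.497, 0.779, 0.913 and 0.626 RPKM in young retinas. The lowest aged value was far above the highest young value, and the log2 difference was 2.30 ± 0.31 (SE), with an adjusted p of 1.92e-05. Glb1l3, a gene of the beta-galactosidase family, was at 51.6, 56.2 and 45.1 RPKM in aged retinas, against 18.91, 18.94, 17.92 and 17.98 RPKM in young retinas. Its young libraries were almost identical, and the log2 difference was 1.44 ± 0.19 (SE) with an adjusted p of 1.12e-05. Tmem116, a gene for a transmembrane protein, was at 2.499, 2.711 and 2.329 RPKM in aged retinas, against 1.07, 0.924, 0.888 and 1.09 RPKM in young retinas (log2 difference 1.01 ± 0.15). Its exons overlap those of Erp29 and Adam1a on the opposite strand, and the library protocol named in the labels does not mark strand, so reads of the overlapping genes cannot be told apart. Erp29 had a log2 difference of 0.07 ± 0.13 and Adam1a of -0.12 ± 0.20.

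**Figure D2:**
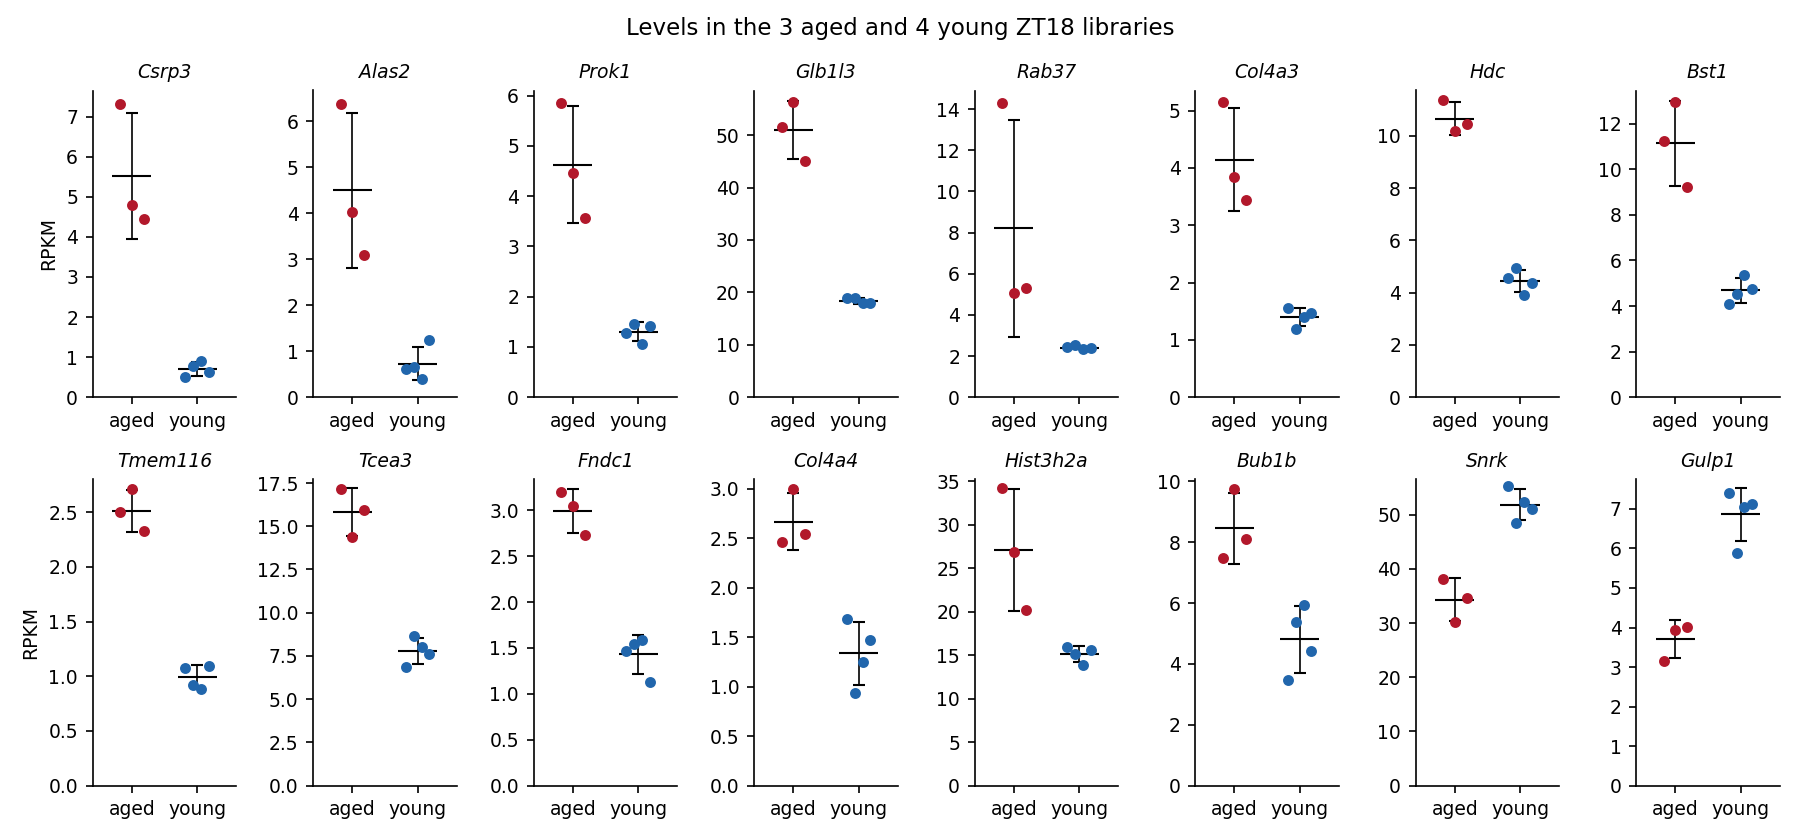
RPKM (linear axis from 0, a scale per panel) of the 14 named rises and 2 named falls in each aged (red) and young (blue) library at ZT18, with the group mean (horizontal line) and SD (bar). In every panel the 2 groups are separate, and Rab37 has 1 aged library at 14.3 RPKM with the others at 5.06 and 5.29 RPKM.

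Prok1, Hdc and Bst1 also rose. Prok1 encodes prokineticin 1, a secreted peptide ligand of G-protein-coupled receptors, and was at 5.86, 4.46 and 3.56 RPKM in aged retinas, against 1.27, 1.46, 1.06 and 1.43 RPKM in young retinas. The log2 difference was 1.49 ± 0.18 (SE), with an adjusted p of 4.34e-06. The unnamed transcript A630076J17Rik, which overlaps Prok1 on the opposite strand, was also called (log2 difference 1.10), and the 2 cannot be told apart without strand. Hdc, the enzyme that makes histamine from histidine, was at 11.4, 10.2 and 10.4 RPKM in aged retinas, against 4.55, 4.95, 3.92 and 4.36 RPKM in young retinas. The aged libraries lay close together for Hdc, as did the young, and far above them (log2 difference 1.18 ± 0.19, adjusted p 0.000248). Bst1, which encodes a membrane enzyme acting on nicotinamide adenine dinucleotide, was at 11.2, 13.0 and 9.23 RPKM in aged retinas, against 4.08, 4.53, 5.38 and 4.76 RPKM in young retinas (log2 difference 1.16 ± 0.24, adjusted p 0.0115). Its exons overlap Fbxl5 on the opposite strand, which had a log2 difference of 0.04 ± 0.09. With each library left out in turn, the log2 difference of Bst1 stayed between 1.05 and 1.28 and it was called in 4 of 7 fits, with the highest adjusted p, 0.175, without aged replicate 2.

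Rab37, a small GTPase of secretory vesicles, was at 14.3, 5.06 and 5.29 RPKM in aged retinas, against 2.43, 2.51, 2.35 and 2.37 RPKM in young retinas. The value of aged replicate 1 stood far above the other aged libraries. With all libraries the log2 difference was 1.42 ± 0.21 (SE, adjusted p 5.66e-05), and without aged replicate 1 it was 0.96 (adjusted p 0.00299). In limma fitted to the 7 ZT18 libraries alone, Rab37 was not called (adjusted p 0.216). Tcea3, a transcription elongation factor gene, was at 17.1, 14.4 and 15.9 RPKM in aged retinas, against 6.87, 8.66, 8.01 and 7.64 RPKM in young retinas (log2 difference 0.98 ± 0.21, adjusted p 0.022). With each library left out in turn Tcea3 was called in 1 of 7 fits, with log2 differences of 0.92 to 1.04 and the highest adjusted p, 0.153, without aged replicate 1. Fndc1, a gene with fibronectin type III repeats, was at 3.20, 3.05 and 2.73 RPKM in aged retinas, against 1.47, 1.55, 1.59 and 1.12 RPKM in young retinas (log2 difference 0.86 ± 0.17, adjusted p 0.0103). It was called in 4 of 7 such fits, with the highest adjusted p, 0.0685, without aged replicate 1.

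Among matrix genes, 2 chains of basement membrane collagen IV rose together. The alpha3 and alpha4 chains, encoded by Col4a3 and Col4a4, share a network with the alpha5 chain in the kidney, inner ear and eye. Col4a3 was at 5.15, 3.84 and 3.44 RPKM in aged retinas, against 1.56, 1.19, 1.40 and 1.48 RPKM in young retinas, which gives a log2 difference of 1.27 ± 0.14 (SE, adjusted p 8.82e-07). Col4a4 was at 2.46, 2.99 and 2.54 RPKM in aged retinas, against 1.69, 0.939, 1.24 and 1.47 RPKM in young retinas, which gives 0.80 ± 0.13 on the same scale (adjusted p 0.000248). In limma fitted to the 7 ZT18 libraries alone, Col4a4 was not called (adjusted p 0.15). The other collagen IV genes with enough reads did not pass: Col4a1 had a log2 difference of 0.58 ± 0.42, with 4.12 RPKM in aged replicate 3, and Col4a2 of -0.04 ± 0.40. Col4a5 stayed below the level filter, at no more than 0.678 RPKM in aged and 0.444 RPKM in young retinas. Of the 15 matrix genes listed 9 passed the filter, of which 2 rose and none fell, beside 0.242% of all genes that rose. The median log2 difference of the list was -0.11, and it was 0.04 without aged replicate 1 and 0.54 with the blood covariate described further on.

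Col4a3 and Col4a4 lie head to head. In the GRCm38 annotation (GENCODE M21) their transcripts start 72 bases apart on chromosome 1 and run in opposite directions, Col4a3 on the plus strand from base 82586921 and Col4a4 on the minus strand from base 82586849. The 71 bases between the starts, chr1:82586850-82586920 on the minus strand of GRCm38.p6, from RefSeq, are shown because both genes that rose are read outward from them. Capitals mark matches to CACCC, read here as GGGTG from the other strand. There are 2 matches, beginning 69 and 41 bases before the start of Col4a4, and 20.3% of 32851 promoter windows of the same length hold at least 1 on either strand.
Col4a4: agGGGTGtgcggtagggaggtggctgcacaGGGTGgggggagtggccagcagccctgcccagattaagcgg

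Bub1b, Racgap1 and Hist3h2a were called in few of the fits that leave out a library. Bub1b, a kinase-like protein of the spindle checkpoint, was at 7.496, 9.762 and 8.098 RPKM in aged retinas, against 3.47, 5.37, 5.95 and 4.43 RPKM in young retinas (log2 difference 0.77 ± 0.17, adjusted p 0.0188). Racgap1, which acts in cytokinesis and lies outside the rule for named genes, had a log2 difference of 0.63 ± 0.15 and an adjusted p of 0.0486, and was called in 8 of 23 processing settings. Bub1b was called in 3 of the 7 fits that each leave out a library, with the highest adjusted p, 0.285, without aged replicate 2, and Racgap1 in 2 of 7, with the highest, 0.531, without aged replicate 3. The defining proliferation markers were near 0: Mki67 did not exceed 0.0197 RPKM in aged or 0.0055 RPKM in young retinas, and Top2a did not exceed 0.0251 RPKM in aged and was at 0 in young retinas. Of the 14 listed cell cycle genes 9 passed the filter, and none of these passed the test. Ccnd1 (cyclin D1) had the smallest p of them, with 7.04, 8.69 and 8.27 RPKM in aged retinas, against 4.35, 5.62, 5.38 and 5.64 RPKM in young retinas (log2 difference 0.57 ± 0.19, adjusted p 0.525). Hist3h2a, a histone H2A gene, was at 34.3, 26.9 and 20.3 RPKM in aged retinas, against 16, 15.1, 13.9 and 15.6 RPKM in young retinas (log2 difference 0.79 ± 0.19, adjusted p 0.0475). Its exons overlap Trim17 on the same strand, which had a log2 difference of 0.57 ± 0.24. Trim17 was at 11.6, 7.48 and 6.21 RPKM in aged retinas, against 6.58, 5.09, 5.09 and 4.75 RPKM in young retinas. Hist3h2a was called in 1 of 7 fits that leave out a library, with an adjusted p of 0.565 without aged replicate 1.

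Alas2, which carries out the committed step of heme synthesis in red cell precursors, was the member of the blood list that passed. It was at 6.37, 4.03 and 3.10 RPKM in aged retinas, against 0.61, 0.65, 0.404 and 1.24 RPKM in young retinas, so that its log2 difference was 2.02 ± 0.46 (SE, adjusted p 0.039). Its exons overlap those of Apex2, which had a log2 difference of 0.01 ± 0.10. With each library left out in turn Alas2 was called in 1 of 7 fits, with log2 differences of 1.76 to 2.23 and the highest adjusted p, 0.327, without aged replicate 1. The globin transcripts were higher in the same libraries without passing. Hbb-bs, a beta-globin gene, was at 285, 176 and 144 RPKM in aged retinas, against 40.1, 25.7, 14.8 and 80.2 RPKM in young retinas (log2 difference 2.52 ± 0.78, adjusted p 0.346). Hba-a1, an alpha-globin gene, had a log2 difference of 2.48 ± 0.79 (adjusted p 0.419). Hba-a1, Hba-a2, Hbb-bs and Hbb-bt include near-identical copies whose reads may have been divided between them. Summed over the 5 blood genes, the level was 625, 371 and 315 RPKM in aged retinas, against 86.1, 55.4, 33.6 and 173 RPKM in young retinas, so the groups did not overlap at ZT18, and all 5 had a positive log2 difference, with a median of 2.48.

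The blood sum varied over the day in aged retinas. It averaged 110, 70.6, 31.6, 354, 437 and 337 RPKM at ZT2, ZT6, ZT10, ZT14, ZT18 and ZT22 in aged retinas, against 79.9, 41.7, 108, 65, 87 and 120 RPKM in young retinas, with group SDs of 18.5 to 326 RPKM. With the mean log2 level of the blood genes as a covariate over the whole series, 18 genes were called at ZT18, 16 higher and 2 lower, and 17 of them were among the 33. Csrp3, Prok1, Glb1l3, Rab37, Col4a3, Col4a4, Hdc, Tmem116, Fndc1 and Snrk were still called in that fit, and Alas2, Bst1, Tcea3, Bub1b, Hist3h2a and Gulp1 were not. Of these, Alas2 had a log2 difference of 0.54 in that fit, against 2.02 without the covariate, while Gulp1 was at -0.85 (adjusted p 0.11) and Bst1 at 1.06 (adjusted p 0.136), close to their values without it. Tcea3, Bub1b and Hist3h2a were at 0.76, 0.56 and 0.55. The blood list includes Alas2 itself.

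Among the named genes, 12 of 16 matched the RefSeq promoter table by symbol. The promoters of 3 of these red cell genes are printed because their transcripts were higher in the same libraries. Each is the 250 bases before the start in GRCm38.p6, from RefSeq, namely chrX:150547167-150547416 on the plus strand for Alas2, chr7:103827929-103828178 on the minus strand for Hbb-bs and chr11:32283422-32283671 on the plus strand for Hba-a1. Capitals mark GATAA, the core read by GATA factors, of which GATA1 acts in red cell precursors, or its reverse TTATC. Each window holds 1 match, beginning 86 bases before the start in Alas2, 209 in Hbb-bs and 182 in Hba-a1. Of 32851 promoter windows of this length, 22.6% hold GATAA on either strand, so a match is common.
Alas2: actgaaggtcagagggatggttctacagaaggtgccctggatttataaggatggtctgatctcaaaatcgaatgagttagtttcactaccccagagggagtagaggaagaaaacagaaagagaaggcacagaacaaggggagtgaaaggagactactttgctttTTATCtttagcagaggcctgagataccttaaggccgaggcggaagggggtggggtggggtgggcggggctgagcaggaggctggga
Hbb-bs: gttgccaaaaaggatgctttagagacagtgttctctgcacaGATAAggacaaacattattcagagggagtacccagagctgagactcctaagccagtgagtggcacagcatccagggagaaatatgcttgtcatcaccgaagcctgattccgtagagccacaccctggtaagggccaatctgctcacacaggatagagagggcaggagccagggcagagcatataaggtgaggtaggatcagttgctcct
Hba-a1: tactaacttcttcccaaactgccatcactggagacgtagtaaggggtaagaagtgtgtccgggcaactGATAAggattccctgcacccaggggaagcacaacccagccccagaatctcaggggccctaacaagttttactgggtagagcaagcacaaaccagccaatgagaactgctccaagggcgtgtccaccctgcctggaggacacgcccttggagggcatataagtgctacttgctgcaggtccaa

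Few transcripts fell. Snrk, a kinase related to AMP-activated protein kinase, was at 38.2, 30.2 and 34.6 RPKM in aged retinas, against 55.3, 48.5, 52.3 and 51.1 RPKM in young retinas, so that its log2 difference was -0.59 ± 0.11 (SE, adjusted p 0.00226). Gulp1, an adaptor protein of the engulfment of dying cells, was at 3.16, 3.94 and 4.02 RPKM in aged retinas, against 7.41, 5.89, 7.05 and 7.13 RPKM in young retinas (log2 difference -0.81 ± 0.18, adjusted p 0.0279). Snrk was called in 5 of 7 fits that leave out a library, with the highest adjusted p, 0.08, without aged replicate 2, and Gulp1 in 1 of 7, with the highest, 0.287, without aged replicate 1. The other fall was a locus with no symbol, ENSMUSG00000120235, at 0.364, 0.135 and 0 RPKM in aged retinas, against 2.78, 2.38, 1.77 and 4.27 RPKM in young retinas (log2 difference -2.29). It reached 0.5 RPKM in the young libraries alone, and so could differ in 1 direction only. Named after their values were seen, Nanos1 and Kirrel fell by less than the fold minimum, with log2 differences of -0.54 (adjusted p 0.0126) and -0.52 (adjusted p 0.0435).

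The other called genes were chosen for naming after their values were seen. Nod2, a cytosolic sensor of bacterial cell wall fragments, was at 2.77, 1.49 and 1.11 RPKM in aged retinas, against 0.188, 0.115, 0.156 and 0.226 RPKM in young retinas (log2 difference 1.71 ± 0.25, adjusted p 5.66e-05). Nod2, Btnl9 (log2 difference 1.24) and Rnf43 (log2 difference 0.65) reached 0.5 RPKM in the aged libraries alone, and so could differ in 1 direction only. Rnf43 was called in 2 of 7 fits that leave out a library, with the highest adjusted p, 0.285, without aged replicate 2. Rdh1, a retinol dehydrogenase, was at 1.30, 2.71 and 1.74 RPKM in aged retinas, against 0.288, 0.571, 0.319 and 0.232 RPKM in young retinas (log2 difference 1.48 ± 0.22). Smaller rises were called for Btc, a ligand of the epidermal growth factor receptor (0.61 ± 0.13), Pls1, an actin-bundling protein (0.65 ± 0.13), Eif4e3, a cap-binding protein (0.64 ± 0.13), and Tm7sf3 (0.65 ± 0.14), each a log2 difference with its SE. With a library left out in turn these 4 were called in 2 to 4 of 7 fits, with the highest adjusted p at 0.375 for Btc without aged replicate 1. Bcl2, an inhibitor of cell death (0.54, adjusted p 0.0126), and Ahrr, a repressor of the aryl hydrocarbon receptor (0.47, adjusted p 0.0103), passed the adjusted p below the fold minimum.

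Most of these age differences were also present at the other times of day. Over the 40 libraries of the other 5 times, all 33 genes called at ZT18 had the same sign, and 32 passed an adjusted p of 0.05. None of these libraries enters the ZT18 groups, but they did enter the estimate of spread behind the ZT18 calls. The 33 were thus chosen partly for a low spread in these libraries. With the fold minimum, 23 of the 33 were called there (69.7% of the ZT18 calls), which is 35.9% of the 64 genes called over those times. The share called among all tested genes was 0.443%, and 2.84% passed without the fold minimum. Of the 33, 32 had the same sign at each of the other 5 times, and the exception was Alas2, with a log2 difference of -0.65 at ZT10. The difference was larger at ZT18 than over the other times for 32 of the 33, all but Tmem116, but the 33 were chosen for being large at ZT18. Csrp3 had a log2 difference of 1.56 ± 0.13 over the other times and 2.30 ± 0.31 at ZT18, Prok1 0.98 ± 0.08 and 1.49 ± 0.18, and Glb1l3 1.37 ± 0.08 and 1.44 ± 0.19.

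**Figure D3:**
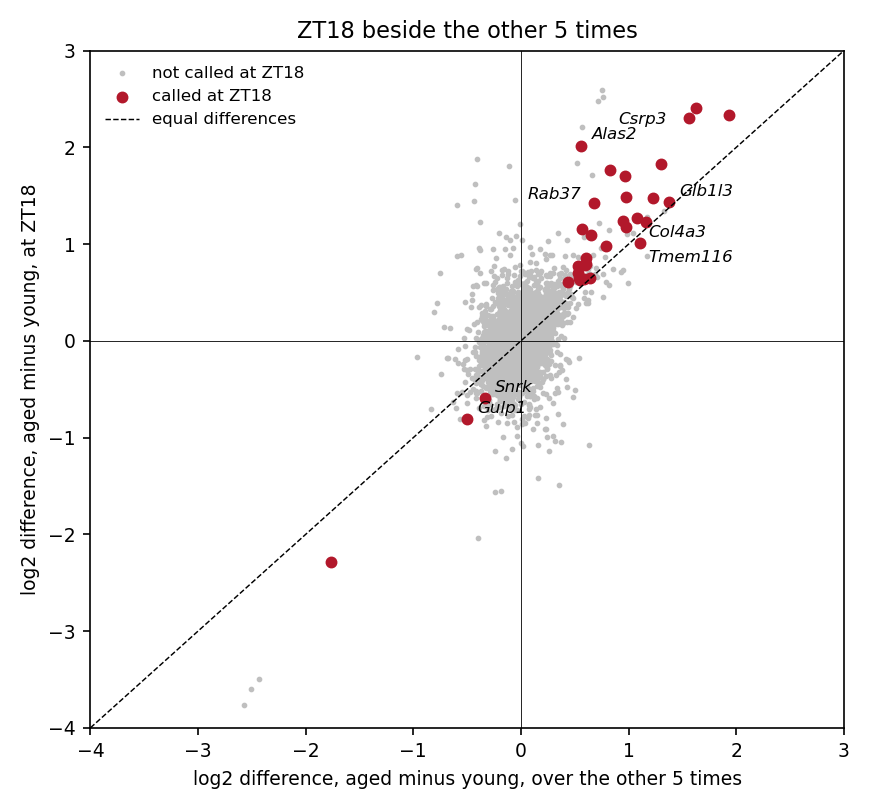
Log2 difference between aged and young retinas at ZT18 (vertical axis) against the difference over the other 5 times (horizontal axis) for each tested gene, with the 33 genes called at ZT18 in red and equality dashed. Every red point lies in the quadrant of equal sign, and all but Tmem116 lie farther from 0 on the ZT18 axis.

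Whether an age difference was particular to ZT18 was tested directly, as the ZT18 difference minus the mean of the differences at the other 5 times. An unadjusted p under 0.05 in limma was reached by 209 of 14461 genes, again under a share of 0.05. No gene passed the adjusted p in limma, and none passed with limma voom on recovered reads. This count depends on the weighting of libraries: with array weights in limma 818 genes passed, and without the level filter 1 did. The smallest p belonged to Ppcs, a gene of coenzyme A synthesis, with 3.24, 3.48 and 3.09 RPKM in aged retinas, against 2.34, 2.00, 2.33 and 2.36 RPKM in young retinas. Its log2 difference was 0.45 ± 0.12 at ZT18 and 0.02 ± 0.06 over the other times, a gap of 0.43 ± 0.13 with an unadjusted p of 0.0014 and an adjusted p of 1. Rab37 had a gap of 0.74 ± 0.22 (unadjusted p 0.00196, adjusted p 1). Fam185a, Prmt3, Foxe3 and St6galnac5 followed, with gaps of 0.41, 0.38, 1.52 and -0.60 and the same adjusted p. Without aged replicate 1 the ZT18 difference of Rab37 was 0.96 in place of 1.42, beside 0.68 over the other times. St6galnac5 was at 1.01 RPKM in aged replicate 1, against 3.05 and 2.90 RPKM in the other aged libraries, and without that library its ZT18 difference was 0.22 in place of -0.18. Foxe3 was at 2.68 RPKM in aged replicate 3, against 0.525 and 0.92 RPKM in the other aged libraries.

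**Figure D4:**
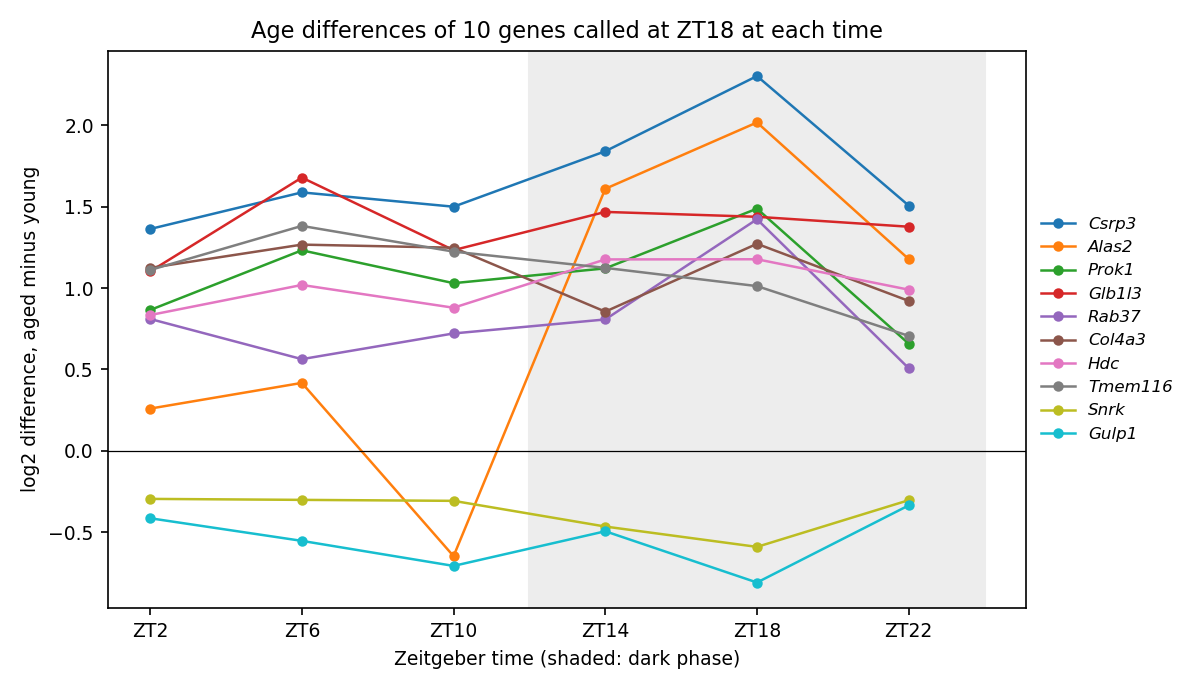
Log2 difference between aged and young retinas (vertical axis) at each of the 6 zeitgeber times (horizontal axis, dark phase shaded) for 10 genes called at ZT18. Csrp3 reaches 2.30 at ZT18 and lies between 1.36 and 1.84 at the other times, Alas2 runs from -0.65 at ZT10 to 2.02 at ZT18, and Snrk and Gulp1 are below 0 at every time.

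The core clock genes, whose feedback loop sets daily rhythms in the retina and other tissues, did not pass at ZT18. None of the 21 tested was called, beside 0.228% of all genes. None had groups that did not overlap, beside 5.5% of all genes in the higher and 3.48% in the lower direction. The median log2 difference was -0.04, against 0.01 without aged replicate 1 and 0.16 with the blood covariate. With array weights 1 clock gene rose. Cry1, a repressor of the clock, was at 19.8, 19.3 and 18.6 RPKM in aged retinas, against 19.9, 23.2, 21.2 and 19.3 RPKM in young retinas (log2 difference -0.12 ± 0.07). Per1 was at 15.2, 15.4 and 16.2 RPKM in aged retinas, against 16.2, 16.1, 16.7 and 15.5 RPKM in young retinas (log2 difference -0.05 ± 0.15). Per2 had a log2 difference of -0.13 ± 0.22 and Rorb, a nuclear receptor needed for photoreceptor development, of -0.06 ± 0.17. The 12 tested immediate early genes, which respond quickly to light and activity, included none that passed. In 2 of them the aged libraries all lay above the young (5.5% of all genes). With array weights 2 rose and 1 fell. Fos was at 24.4, 15.3 and 12.4 RPKM in aged retinas, against 22.9, 21.8, 17.9 and 25.1 RPKM in young retinas (log2 difference -0.38 ± 0.35).

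Genes of immunity and glial activation lay mostly above 0 without passing. In the interferon, antigen presentation, microglia and gliosis lists none of the members passed, beside 0.277% of all genes, and the lists share some members. These counts depend on the setting. With array weights 5, 8, 7 and 9 members rose and 1 gliosis gene fell. Without the libraries of other times that stand apart 1 antigen presentation and 1 gliosis gene rose. Of 17 tested interferon response genes 16 had a positive log2 difference, with a median of 0.32, and in 6 the aged libraries all lay above the young (5.5% of all genes). Without aged replicate 1 the median was 0.18. Ifi27 was at 8.07, 6.59 and 7.14 RPKM in aged retinas, against 5.18, 3.36, 4.29 and 5.53 RPKM in young retinas (log2 difference 0.63 ± 0.27, adjusted p 1). Irf7, a transcription factor of the interferon response, had a log2 difference of 0.32 ± 0.20. Of 14 antigen presentation genes 12 were positive, with a median of 0.42 and 6 fully above. Tap2, a subunit of the peptide transporter that loads class I molecules, was at 3.22, 1.88 and 1.95 RPKM in aged retinas, against 1.07, 1.02, 0.907 and 1.11 RPKM in young retinas (log2 difference 0.87 ± 0.26, adjusted p 0.268). H2-D1, a class I heavy chain that shares sequence with its relatives, was at 25.5, 27.6 and 24.7 RPKM in aged retinas, against 21.4, 18.1, 18.7 and 18.9 RPKM in young retinas (log2 difference 0.42 ± 0.22).

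Microglial markers showed a similar pattern. Of 11 tested, 10 were positive, with a median of 0.40 and 4 fully above, beside 5.5% of all genes. Their summed level, over 14 listed genes, was 45.3, 50.8 and 41.4 RPKM in aged retinas, against 33.8, 32.5, 29 and 39.8 RPKM in young retinas, so the groups did not overlap. C1qb, a subunit of the first complement component, was at 8.47, 9.73 and 8.17 RPKM in aged retinas, against 6.94, 6.85, 5.63 and 6.71 RPKM in young retinas (log2 difference 0.40 ± 0.56). The pan-leukocyte marker Ptprc did not exceed 0.0639 RPKM in aged or 0.0408 RPKM in young retinas, and the T cell marker Cd3e did not exceed 0.0366 RPKM in aged and was at 0 in young retinas. Of 14 gliosis and stress genes 13 were positive, with a median of 0.36. Fgf2, a survival factor for photoreceptors, was at 6.78, 4.19 and 4.63 RPKM in aged retinas, against 4.03, 2.87, 3.36 and 3.25 RPKM in young retinas (log2 difference 0.54 ± 0.15, adjusted p 0.217). Gfap, the filament protein of astrocytes and stressed Müller glia, was at 7.67, 6.21 and 7.23 RPKM in aged retinas, against 6.86, 4.30, 4.27 and 4.71 RPKM in young retinas (log2 difference 0.46 ± 0.35), so these groups overlapped. Edn2, an endothelin made by stressed photoreceptors, had a log2 difference of 1.21 ± 0.50 at ZT18 and -0.01 over the other times.

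**Figure D5:**
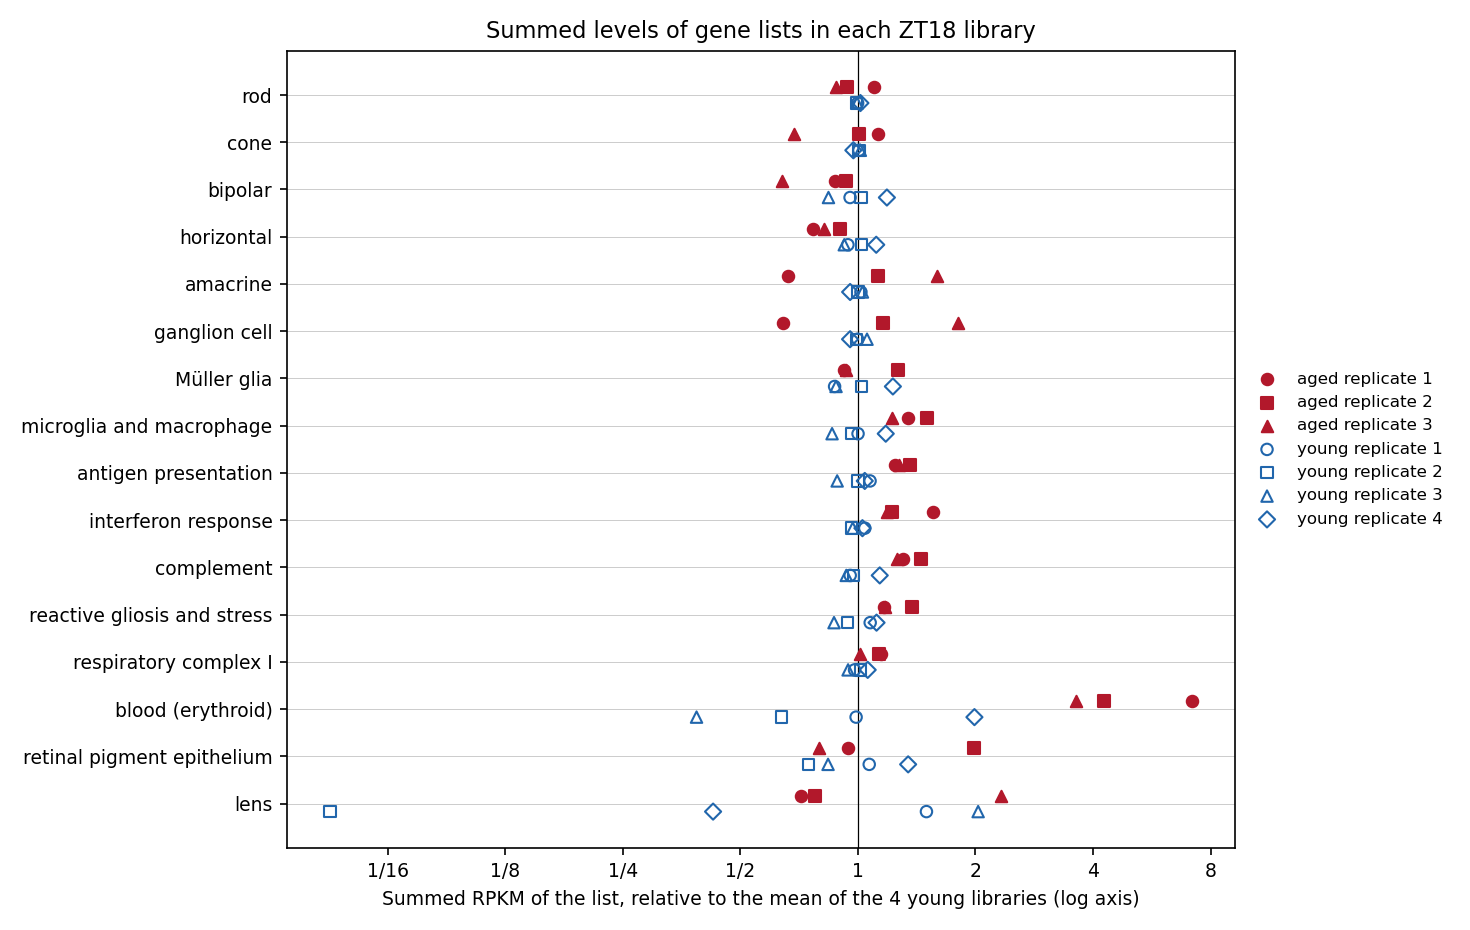
Summed RPKM of each gene list in each ZT18 library, divided by the mean of the 4 young libraries (horizontal log axis), with aged libraries as filled red symbols above the young as open blue symbols in each row. The aged libraries lie above all young ones for the microglia, antigen presentation, interferon, complement, gliosis and blood lists and below them for the horizontal list, and aged replicates 1 and 3 stand at opposite ends for the amacrine and ganglion cell lists.

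Markers of the second-order neurons lay below 0. All 15 bipolar markers had a negative log2 difference, with a median of -0.34, and in 4 the aged libraries all lay below the young (3.48% of all genes), but none passed. Grm6, the glutamate receptor of ON bipolar cells, was at 9.297, 10.64 and 5.498 RPKM in aged retinas, against 12.64, 13.4, 11.73 and 16.01 RPKM in young retinas (log2 difference -0.68 ± 0.36, adjusted p 1). The median of the bipolar list was -0.19 without aged replicate 3, with 4 of 15 positive, -0.16 with array weights, where 1 member fell, and -0.13 with the blood covariate. Over the other 5 times it was -0.10. All 6 tested horizontal cell markers were also negative, with a median of -0.28 at ZT18, or 0.14 with the blood covariate, and -0.10 over the other times. Rod and cone markers had medians of -0.01 and -0.08, which changed sign in 6 and 1 processing settings, and Opn1sw, the short-wavelength cone opsin, was at 254, 231 and 149 RPKM in aged retinas, against 236, 276, 281 and 220 RPKM in young retinas. The medians of the ganglion and amacrine lists, 0.10 and -0.01, rest on aged libraries that stood on both sides of the young. They were -0.25 and -0.26 without aged replicate 3, 0.56 and 0.30 without aged replicate 1, and 0.85 and 0.65 with the blood covariate.

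Nuclear-encoded subunits of respiratory complex I, the entry point of electrons into the respiratory chain, were positive for 33 of 36 genes, with a median of 0.13. Of all 14461 genes, 7810 were higher. In 7 of the 36 the aged libraries all lay above the young (5.5% of all genes). The median of the list was -0.01 with the blood covariate. The differences were small and none passed, while 16 rose with array weights: Ndufb3 was at 84.7, 74.3 and 74.5 RPKM in aged retinas, against 64.2, 64.8, 61.6 and 64.7 RPKM in young retinas (log2 difference 0.28 ± 0.18). Over the other 5 times the median of this list was 0.01. The 13 transcripts of the mitochondrial genome had a median of 0.02, which changed sign in 10 processing settings.

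Transcripts of neighbouring eye tissues varied widely between libraries of 1 age. The 18 lens genes summed to 483, 525 and 1570 RPKM in aged retinas, against 1010, 30, 1370 and 287 RPKM in young retinas, so the groups overlapped widely. Crygb, a gamma crystallin, was at 0.0845, 0.0786 and 1.61 RPKM in aged retinas, against 29.2, 0.0864, 67.9 and 17.8 RPKM in young retinas. Cryaa, an alpha crystallin, was at 150, 153 and 424 RPKM in aged retinas, against 246, 2.31, 278 and 58.0 RPKM in young retinas. Neither passed, with log2 differences of -3.77 ± 1.58 and 1.88 ± 1.98. Crygb, Crygc and Crygd are close paralogs whose reads may have been divided, and their log2 differences were -3.77, -3.60 and -3.50. Over the other 5 times these were -2.58 ± 0.64, -2.51 ± 0.61 and -2.43 ± 0.56. There all 3 passed in limma, with adjusted p of 0.0166, 0.0134 and 0.00844. Cryaa was at -0.41 ± 0.87 over those times. Pigment epithelium genes summed to 250, 524 and 210 RPKM in aged retinas, against 283, 198, 222 and 356 RPKM in young retinas. That list shares Rlbp1 with the Müller glia list and Otx2 with the bipolar list, so its level is not of pigment epithelium alone. Rlbp1 was at 85.1, 138 and 68.1 RPKM in aged retinas, against 87.8, 95.6, 76.4 and 130 RPKM in young retinas. With the mean levels of the lens and pigment epithelium lists as covariates 34 genes were called at ZT18, 28 of them among the 33. Aldh3a1, a corneal crystallin, was at 0.911, 2.40 and 9.36 RPKM in aged retinas, against 0.242, 0.113, 0.463 and 0.177 RPKM in young retinas (log2 difference 2.22 ± 0.57, adjusted p 0.0948). Without aged replicate 1 it passed, with a log2 difference of 2.86 (adjusted p 0.0211), and without aged replicate 3 the difference was 1.45 and did not pass. The corneal keratin Krt12 did not exceed 0.821 RPKM in aged or 0.164 RPKM in young retinas.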

How the data were processed

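The authors deposited RPKM values, 1 column per library without pooling. Named in the submitters' processing notes are the build GRCm39 and the tools HISAT2 2.2.1, Subread 2.0.6 and FastQC 0.23.4. Their annotation is not given in the sources used here. A further column (1), headed as an aged ZT18 library, matched no sample in the labels and was not used, so the aged ZT18 group has 3 libraries and its means, spread and calls rest on these. Symbols and overlaps come from GENCODE M21, an earlier build, and 350 tested genes had no symbol.

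The test was limma 3.58.1 (R 4.3.3) on log2(RPKM + 0.5), which understates fold changes of low genes: 12 group means over 47 libraries, eBayes with trend, Benjamini-Hochberg adjustment over all 14461 genes. Age over the other 5 times was fitted to their 40 libraries with time as a factor. The submitters' thresholds were kept, a fold over 1.5 at an adjusted p under 0.05, with limma in place of the edgeR named in the series' text because RPKM are not counts. Reads within 0.01 of a whole number were recovered for all 14461 genes from the steps of the values, 1163 of them with a length fitted to give this, and served limma voom as an alternative. No ZT18 replicate pair agreed within sampling noise: the chi-square of their reads, averaged over genes, was 7.97 to 110.37 in 9 pairs. Scripts were tested on simulated data.

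Named genes were up to 14 rises and 10 falls by size among called genes with at least 2 RPKM in 1 age and an established symbol (14 and 2 resulted), list members with an adjusted p under 0.05 (up to 4 a list) or among the 2 highest in level, any member of 7 lists, and the 6 genes with the smallest p against the other times. The comparison, its 39 gene lists and the rules were chosen with earlier results of these data known. Some list members given above for their small p lie outside this rule and were chosen after their values were seen. Libraries were left out singly or as a pair, and the other settings tried varied weights, covariates, scaling, filter, pseudocount, moderation, fold minimum and replicate block. Clock genes are counted together and only some are reported here by name.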

Additional observations from a re-analysis of the deposited data

Results flagged for a closer look

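Among 112 values screened in the 4 young ZT18 libraries, 4 had 1 library far from the other three, by Dixon's criterion, which chance meets in about 1 of 20 such groups. Gfap was at 6.86 RPKM in young replicate 1, with the next highest at 4.71 RPKM. Ppcs was lowest in young replicate 2, at 2.00 RPKM, with the next at 2.33 RPKM. Ddx3y was lowest in young replicate 4, at 6.33 RPKM, with the next at 8.12 RPKM. The summed T and B lymphocyte list reached 0.784 RPKM in young replicate 4, with the next at 0.333 RPKM, and 1 of its 11 genes passed the level filter. The 3 aged libraries are too few for this screen.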

How the results depend on the processing

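Of the settings tried, these moved a count by over 1.5 times. At ZT18, 33 genes were called, against 18 with the blood covariate, 378 with array weights and 69 once aged ZT6 replicate 3 and young ZT10 replicate 4 were left out. Leaving out each of the 7 libraries gave 19 to 30. Settings that moved the count by less also lost calls. Of the 33, 13 were lost with the 7 ZT18 libraries alone, among them Col4a4, Rab37, Rdh1 and Snrk. Median-ratio scaling lost 12 of the 33 and quantile normalization 11. For ZT18 against the other 5 times the count was 0, against 1 without the level filter and 818 with array weights, and 0 in every fit that left out a library. Over the other times the count was 64, against 39 with a pseudocount of 1 and 411 without the fold minimum. The cause was not tested. Of the calls at ZT18, 90.9% were higher in aged retinas, against 70.9% with array weights and 79.4% with pigment epithelium and lens covariates. The log2 difference of Rlbp1 reversed to 0.47 with array weights. The blood covariate moved the median of all genes to 0.09. Replicate numbers did not pair the samples (same-number correlations -0.05, 0 and 0.22): with the replicate block 38 genes were called at ZT18, 0 against the other times and 64 over the other times. Age over the other times was not run with voom, with the 7 libraries alone or without single ZT18 libraries. The 3 aged libraries limit the precision.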

Other observations

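The antioxidant, cholesterol synthesis, chaperone, ribbon synapse, complement and Müller glia lists held no gene that passed at ZT18, beside 0.277% of all genes. With array weights 8 antioxidant, 4 cholesterol synthesis, 3 chaperone, 6 complement and 4 Müller glia genes rose. In the same fit 1 cholesterol synthesis, 1 chaperone and 1 ribbon synapse gene fell. Of 19 antioxidant genes 15 had a positive log2 difference, with a median of 0.13, or 0.07 without aged replicate 2. Of 21 cholesterol synthesis genes 15 were positive, with a median of 0.03 (-0.04 without aged replicate 3, 0.33 with the blood covariate). Of 22 chaperone genes 15 were negative, with a median of -0.04 that changed sign in 3 processing settings (0.02 without aged replicate 3, 0.04 with the blood covariate). Of 19 ribbon synapse genes 13 were negative, with a median of -0.04. The 8 tested complement genes had 6 positive members and a median of 0.39, with summed levels of 95.5, 106 and 92.2 RPKM in aged retinas, against 69.9, 71.2, 68.3 and 83.2 RPKM in young retinas. Müller glia markers had a median of -0.04, which changed sign in 4 processing settings.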
